A study of Mus musculus with 8 samples.

Results

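Phase II conjugation is the step of drug and hormone metabolism in which a polar group is attached to a small molecule so that it can leave the cell and the body. The liver is its main site. Glucuronosyltransferases (Ugt genes) transfer glucuronic acid from UDP-glucuronate, sulfotransferases (Sult genes) transfer sulfate from PAPS, and glutathione transferases (Gst genes and the membrane-bound Mgst genes) attach the tripeptide glutathione to reactive, electrophilic compounds. Bilirubin, bile acids, steroid hormones, thyroid hormones, phenols and products of lipid peroxidation are among their substrates. The enzymes were taken from the table of 21532 genes by symbol, as Ugt, Sult or Mgst followed by a digit and Gst followed by a class letter and a digit, with no use of measured values. This gave 61 genes, of which 18 were glucuronosyltransferases, 18 sulfotransferases and 25 glutathione transferases, the last including the pseudogene Gstm2-ps1.

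Their expression was measured by RNA-Seq in the livers of 8 male db/db mice, which lack a functional leptin receptor and become obese and diabetic on either treatment. The mice were 8 weeks old at the start and received 5 mg/kg body weight of a control or of AF1 peptide by retro-orbital injection, 2 times per week for 5 weeks, with 4 mice in each group. AF1 peptide is a synthetic peptide derived from the N-terminal region of estrogen receptor α, shortened by the deletion of internal sequences and joined to the cell-penetrating TAT sequence. There was 1 library of frozen liver per mouse, no lean or untreated group was analysed here, and the comparison is of AF1 peptide against control within db/db mice.

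Recovered reads ranged from 23031880 to 45117528 per mouse. AF1 peptide replicate 1 stood apart from the other mice of its group. Its chi-square statistic against them was 231 to 312 per degree of freedom, where the other AF1 peptide pairs gave 14.6 to 39.8 and the control pairs 39.2 to 101. In 25.9% of the tested genes this mouse had the highest value of all 8, and in 23.4% the lowest. The 13 mitochondrial genes held 20.8% of its reads, against 34.3 to 37.8% in the other AF1 peptide mice and 22.4 to 34.3% in control mice. The summed counts of AF1 peptide replicate 1 for 6 hepatocyte markers (1892280, against 2469040 to 2656940 in control mice) and for 5 Kupffer cell and macrophage markers (1977, against 4485 to 5527) were the lowest of all mice, as were those of the bile duct, stellate cell, red blood cell and fat lists. For the hepatocyte markers AF1 peptide replicates 3 (2157400) and 4 (2349920) were also below every control mouse, and replicate 2 (2620710) was within the control range. Of 5 listed markers each, 1 of pancreas, 2 of fat and 1 of intestine and kidney were in the table, with sums of at most 250, 104 and 8.65 normalized counts in a mouse. The part of the state of AF1 peptide replicate 1 in the results below was not tested. The counts of each class and list and the values that this mouse moved most are therefore also given without it. In bulk tissue, fewer cells of a type and less RNA per cell cannot be told apart.

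Values are normalized counts, that is, reads divided by a size factor of the library. AF1 peptide and control livers were compared on the log2(normalized count + 1) scale in a limma fit of 15989 genes, those whose mean reached 10. The added 1 shrinks the fold change of weakly expressed genes. A gene was called when its unadjusted p was under 0.05 and its change over 1.3-fold. By this rule 1.79% of all tested genes were called higher and 1.9% lower, and by p under 0.05 alone 3.16% were higher and 3.03% lower. Without AF1 peptide replicate 1 the rule called 2.86% higher and 3.07% lower, and p alone gave 4.58% and 5.48%. No gene passed a Benjamini-Hochberg adjusted p of 0.05 in limma (0 genes, against 990 at an unadjusted p under 0.05), and edgeR gave 0 genes and DESeq2 3 at that adjusted p. Every difference below is therefore a difference at an unadjusted p, and the smallest adjusted p of the enzymes was 0.763 with all mice and 0.452 without AF1 peptide replicate 1.

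Of the 61 enzymes, 52 passed the filter on low counts, namely 15 glucuronosyltransferases, 14 sulfotransferases and 23 glutathione transferases. The 9 that did not were Ugt1a2, Ugt1a7c, Ugt8a, Sult2a6, Sult2b1, Sult3a2, Sult4a1, Gsto2 and Mgst2, with 0 to 15.9 normalized counts in a mouse. Among the 52, AF1 peptide livers had 1 gene called higher, Sult5a1, and 4 called lower, Ugt1a1, Ugt1a5, Ugt1a6a and Ugt1a6b, against 1.79% and 1.9% of all tested genes. The 4 control values and the 4 AF1 peptide values overlapped in each of the 52, where 2.05% of all tested genes were higher and 1.85% lower with no overlap. The median log2 fold change was 0.02 over the 52 enzymes and -0.01 over all tested genes, with 27 enzymes higher and 25 lower. Without AF1 peptide replicate 1 the same 5 genes were called, but 15 enzymes were higher and 37 lower, and their median was -0.12 where that of all genes was -0.0036.

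**Figure D1:**
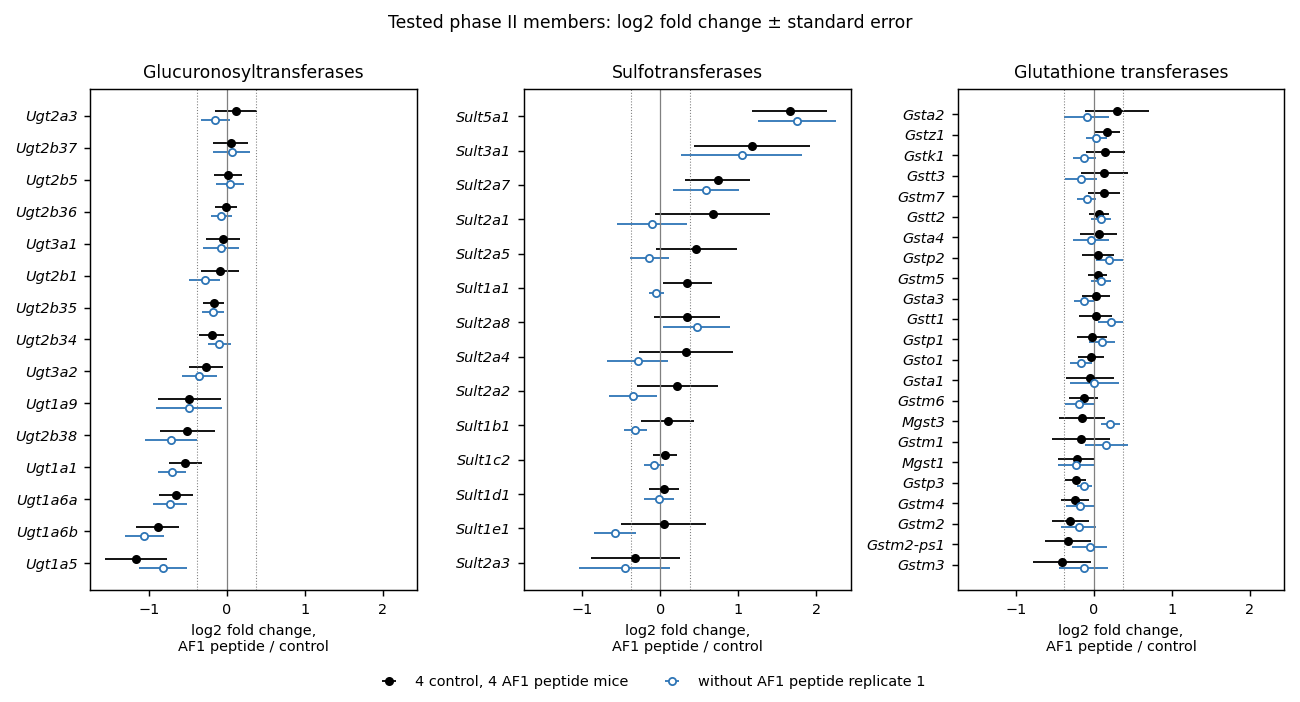
Log2 fold change of AF1 peptide over control for the 52 tested enzymes, 1 panel per class, with the standard error as bars; black points use all 8 mice, open blue points leave out AF1 peptide replicate 1, and dotted lines mark 1.3-fold. The Ugt1a genes and Ugt2b38 lie at the lower left in both fits, and Sult5a1 lies at the upper right in both. Most other sulfotransferases sit right of 0 only with replicate 1 included.

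The sequences just upstream of the genes that the results turn on are shown first. They are the 250 bases before the start in RefSeq's promoter table (build GRCm38.p6, which is not the build named for the reads, mm39), 5′ to 3′ on the gene's strand. Capitals mark matches, on either strand, to the xenobiotic response element core GCGTG, which the aryl hydrocarbon receptor binds. Tested genes of the Ugt1a cluster are shown because 4 of them were called lower, and of these Ugt1a6b has no entry in the table. The windows of the untested Ugt1a7c and Ugt1a2, which also lie in the cluster, are left out. On the plus strand of chromosome 1 the windows of Ugt1a9 (chr1:88070529-88070778), Ugt1a6a (chr1:88134559-88134808), Ugt1a5 (chr1:88165762-88166011) and Ugt1a1 (chr1:88211709-88211958) follow each other in this order.
Ugt1a9: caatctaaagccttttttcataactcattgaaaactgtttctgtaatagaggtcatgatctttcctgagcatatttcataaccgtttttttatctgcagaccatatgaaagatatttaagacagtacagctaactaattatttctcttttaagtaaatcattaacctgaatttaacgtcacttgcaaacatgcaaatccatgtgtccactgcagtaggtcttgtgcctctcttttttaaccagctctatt
Ugt1a6a: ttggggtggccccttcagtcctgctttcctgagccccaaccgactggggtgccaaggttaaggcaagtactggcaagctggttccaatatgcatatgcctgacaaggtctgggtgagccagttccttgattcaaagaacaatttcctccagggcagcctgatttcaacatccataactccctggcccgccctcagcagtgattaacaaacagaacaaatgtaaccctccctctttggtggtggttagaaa
Ugt1a5: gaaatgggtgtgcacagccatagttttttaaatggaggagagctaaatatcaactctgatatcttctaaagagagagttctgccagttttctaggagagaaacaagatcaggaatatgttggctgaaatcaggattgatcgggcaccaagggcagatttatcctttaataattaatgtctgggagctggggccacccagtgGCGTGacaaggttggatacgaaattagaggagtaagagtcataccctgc
Ugt1a1: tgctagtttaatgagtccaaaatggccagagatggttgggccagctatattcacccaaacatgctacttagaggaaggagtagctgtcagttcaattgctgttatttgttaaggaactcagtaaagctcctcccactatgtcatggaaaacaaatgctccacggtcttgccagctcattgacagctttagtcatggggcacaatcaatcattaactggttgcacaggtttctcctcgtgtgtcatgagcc
The last is Sult5a1 (minus strand, chr8:123158281-123158530), the gene called higher.
Sult5a1: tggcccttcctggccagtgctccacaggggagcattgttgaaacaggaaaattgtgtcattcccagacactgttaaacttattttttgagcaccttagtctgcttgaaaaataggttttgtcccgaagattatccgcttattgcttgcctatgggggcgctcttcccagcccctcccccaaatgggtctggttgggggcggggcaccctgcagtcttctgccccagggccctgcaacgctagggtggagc

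Of these 5 windows only that of Ugt1a5 held the GCGTG core. Over the whole table of promoters, which run 300 bases from 250 before to 50 after the start, 35.2% of 27025 genes held it. It was found in 2 of 16 glucuronosyltransferases with an entry (12.5%), in 3 of 14 sulfotransferases (21.4%) and in 7 of 22 glutathione transferases (31.8%). The antioxidant response element core TGACNNNGC, the letters that NRF2 binds, was found in 4 glutathione transferases, Gsta3, Gstm5, Gstm7 and Mgst1 (18.2%), in none of the genes of the other classes, and in 14% of all genes. These are matches of letters and not sites shown to be bound.

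Glucuronosyltransferases were lower in 12 of 15 tested genes, with 4 called lower and 0 called higher, and a median log2 fold change of -0.19. With 13 lower, the median was -0.28 without AF1 peptide replicate 1, and with 9 lower it was -0.076 without AF1 peptide replicate 3. The called genes were all of the Ugt1a cluster. Ugt1a genes are unusual in that each has its own first exon while the remaining exons are shared by the cluster, so part of each transcript is common to all. In a transcript annotation (GENCODE M21), 58.2% of the 50-base words of Ugt1a1 were also found in another gene, and the share was 64% for Ugt1a5, 52.1% for Ugt1a6a, 79.8% for Ugt1a6b and 62% for Ugt1a9. How the authors assigned such reads is not given in the sources used here, so the split of reads among Ugt1a genes is uncertain and their changes are not independent of each other.

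Ugt1a1 encodes the enzyme that conjugates bilirubin. Its normalized counts were 283, 470, 293 and 389 in control replicates 1 to 4, and 351, 226, 185 and 237 in AF1 peptide replicates 1 to 4. AF1 peptide replicates 2 to 4 lay below every control mouse, and replicate 1 lay among the controls. Ugt1a1 had a log2 fold change of -0.53 ± 0.22 (SE, n = 4 per group; limma, unadjusted p = 0.0347, adjusted p = 0.763), and of -0.70 ± 0.18 without AF1 peptide replicate 1 (unadjusted p = 0.00228, adjusted p = 0.452). The call was kept in 3 of the 8 fits that left out a mouse.

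Ugt1a6a and Ugt1a6b encode closely related enzymes for small planar phenols. Ugt1a6a had 115, 141, 71.3 and 119 normalized counts in control livers and 80.3, 69.4, 57.7 and 68.9 in AF1 peptide livers. Ugt1a6b had 155, 151, 75.7 and 119 in control livers and 92.4, 47.5, 72.5 and 55.1 in AF1 peptide livers. For both, control replicate 3 was the only control mouse that reached down into the AF1 peptide values. Log2 fold changes were -0.65 ± 0.22 for Ugt1a6a (limma, unadjusted p = 0.0126) and -0.89 ± 0.27 for Ugt1a6b (unadjusted p = 0.00827). Without AF1 peptide replicate 1 they were -0.73 and -1.05 (limma, unadjusted p = 0.00709 and 0.00146). An unadjusted p under 0.05 was kept in 8 of 8 fits that left out a mouse, for each gene.

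Ugt1a5 had the most negative fold change of the 52 enzymes with all mice, and Ugt1a6b without AF1 peptide replicate 1. Its values were 101, 177, 55.1 and 89.6 normalized counts in control livers and 20.5, 60.3, 51.9 and 52.3 in AF1 peptide livers. Here AF1 peptide replicate 1 was the lowest mouse, and control replicate 3 again overlapped the AF1 peptide range. This gave a log2 fold change of -1.16 ± 0.40 (limma, unadjusted p = 0.0146) and -0.82 ± 0.31 without AF1 peptide replicate 1 (unadjusted p = 0.0223). When limma's moderation was dropped and a gene was tested on its own variance alone, Ugt1a1 (unadjusted p = 0.088) and Ugt1a5 (unadjusted p = 0.0547) were no longer called, which left Ugt1a6a and Ugt1a6b.

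Ugt1a9, another enzyme for phenols, was not called. Its values were 97.2, 254, 85.4 and 111 in control livers and 90.5, 96.8, 44.5 and 158 in AF1 peptide livers, with a log2 fold change of -0.48 ± 0.41 (limma, unadjusted p = 0.267). The groups overlapped widely, and control replicate 2 was far above the other control mice. That mouse was the highest of all 8 for 4 of the 5 tested Ugt1a genes. Without control replicate 2 the median log2 fold change of the 5 genes was -0.53, against -0.65 with all mice, and Ugt1a1 was not called. All 5 were lower in AF1 peptide livers under each scaling and each left-out mouse. Summed over the 7 Ugt1a genes of the table, control livers had 753, 1195, 587 and 835 normalized counts and AF1 peptide livers 635, 506, 413 and 579, so that AF1 peptide replicate 1 overlapped control replicate 3. The means were 842 ± 256 and 533 ± 96.0 (SD, n = 4), a ratio of 0.633.

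**Figure D2:**
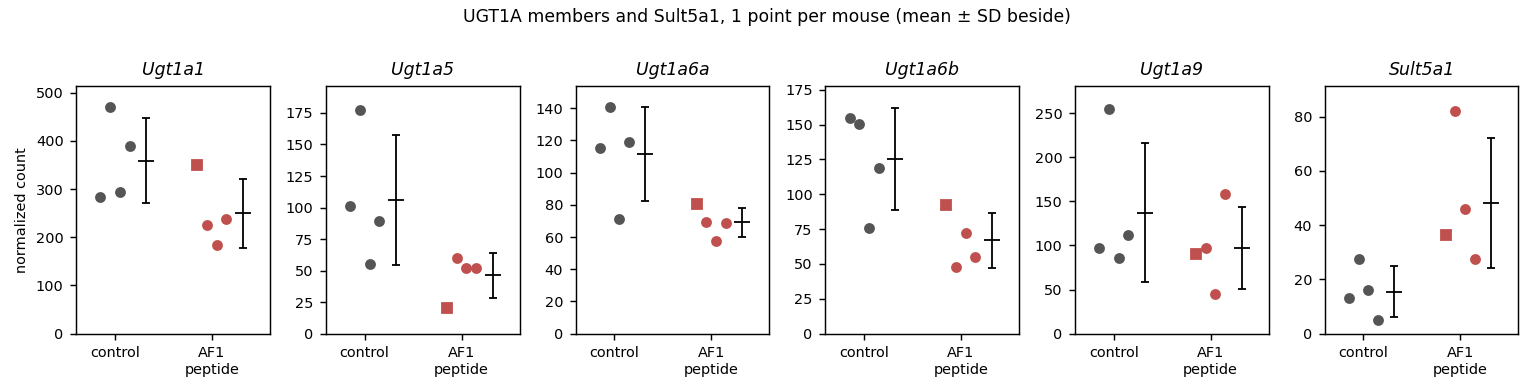
Normalized counts of the 5 tested Ugt1a genes and of Sult5a1, 1 point per mouse, with group mean ± SD (n = 4) beside the points; the square is AF1 peptide replicate 1. AF1 peptide points lie low in the Ugt1a panels (group means of 46.3 to 250 against 106 to 358 in control) and high in the Sult5a1 panel (48.1 against 15.5).

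The Ugt2 genes, whose products conjugate steroids, bile acids and many drugs, were more abundant per kilobase of exon than each Ugt1a gene except for Ugt2b37 and Ugt2b38, and none was called. The highest were Ugt2b5 (mean of all mice 6141 normalized counts per kilobase) and Ugt2b36 (5917), where Ugt1a1 had 137. Ugt2b36 had 12244, 13490, 11801 and 11108 normalized counts in control livers and 13753, 12732, 9338 and 13001 in AF1 peptide livers, and its log2 fold change was -0.01 ± 0.14 (limma, unadjusted p = 0.964). Ugt2b5 had 11169, 13365, 11684 and 8994 against 10735, 13600, 8422 and 13310 (log2 fold change 0.02 ± 0.18, unadjusted p = 0.933), and it shares 41.7% of its 50-base words with other genes, mostly Ugt2b38. Both genes were near equal in the groups and lowest of the AF1 peptide mice in replicate 3. Ugt2b34 had 6726, 7213, 6433 and 5861 in control livers and 4670, 6312, 4771 and 7621 in AF1 peptide livers (log2 fold change -0.19 ± 0.16, unadjusted p = 0.257), with a wider spread in the treated group.

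The remaining tested members of the class were Ugt2a3, Ugt2b1, Ugt2b35, Ugt2b37, Ugt2b38, Ugt3a1 and Ugt3a2, with log2 fold changes from -0.50 (Ugt2b38) to 0.12 (Ugt2a3). The value of Ugt2b38 (-0.50 ± 0.36, limma, unadjusted p = 0.186) lay between those of Ugt1a1 (-0.53) and Ugt1a9 (-0.48). Without AF1 peptide replicate 1 it was -0.71 ± 0.33 (limma, unadjusted p = 0.0539), where Ugt1a1 had -0.70 and Ugt1a9 -0.49. A low value was thus not particular to the Ugt1a genes. Ugt3 enzymes use sugars other than glucuronic acid. Of the 8 tested Ugt2 genes, 3 were higher and 5 lower (1 higher and 7 lower after rescaling to equal totals), and both Ugt3 genes were lower. Ugt2a3 was highest in AF1 peptide replicate 1 (4104 normalized counts, against 1885 to 2740 in control livers and 1378 to 2427 in the other AF1 peptide livers), and without that mouse its log2 fold change went from 0.12 to -0.14. Ugt8a, the enzyme of myelin galactolipid synthesis, was at 2.16 to 9.06 normalized counts and was not tested.

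Of 14 tested sulfotransferases 1 was called higher, where 1.79% of all tested genes were. In AF1 peptide livers 13 of the 14 were higher, with a median log2 fold change of 0.34. This direction rested on 1 mouse. AF1 peptide replicate 1 had the highest value of all 8 mice in 9 of the 14 genes (64.3%, where it was highest in 25.9% of all tested genes) and lay above every control mouse in 10. Without it, 4 sulfotransferases were higher and 10 lower, with a median of -0.09. After rescaling to equal totals, 10 were higher and 4 lower with all mice included.

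Sult1a1, which sulfates simple phenols, was the most abundant sulfotransferase per kilobase of exon (8489 normalized counts per kilobase). It had 11092, 10612, 9785 and 10344 normalized counts in control livers and 30253, 9967, 10083 and 10204 in AF1 peptide livers. Replicate 1 thus had 2.89 times the control mean, and the other 3 AF1 peptide mice lay close together and inside the control range. With all mice the log2 fold change was 0.35 ± 0.32 (limma, unadjusted p = 0.3) and -0.05 ± 0.10 without replicate 1 (unadjusted p = 0.614).

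Sult1e1 inactivates estrogens by sulfation. Its values were 1872, 780, 1057 and 982 in control livers and 4220, 754, 535 and 1008 in AF1 peptide livers. AF1 peptide replicate 1 was the highest mouse, while the other 3 lay at or below the middle of the controls. The log2 fold change was 0.04 ± 0.54 (limma, unadjusted p = 0.936), and -0.58 ± 0.27 without replicate 1 (unadjusted p = 0.0524, adjusted p = 0.4995). Sult1b1, an enzyme for thyroid hormones, had the same form, with 1096 normalized counts in replicate 1, 274 to 404 in the other AF1 peptide livers and 370 to 469 in control livers. All 5 tested Sult1 genes, which also include Sult1c2 and the catecholamine sulfotransferase Sult1d1, were higher with all mice and lower without replicate 1, and with all mice rescaled to equal totals 2 were higher and 3 lower.

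The Sult2a genes sulfate hydroxysteroids such as dehydroepiandrosterone and bile acids. Sult2a1 had 985, 429, 392 and 755 normalized counts in control livers and 4805, 502, 264 and 1264 in AF1 peptide livers, so that replicate 1 had 7.5 times the control mean. Sult2a2 had 2527, 1544, 1419 and 1996 against 6862, 1463, 813 and 2469. Sult2a5 had 338, 204, 249 and 246 against 1227, 259, 143 and 334. In all 3 genes AF1 peptide replicate 1 was far above every other mouse and replicate 3 was the lowest mouse. The log2 fold changes were 0.67 ± 0.73, 0.22 ± 0.52 and 0.46 ± 0.52 (limma, unadjusted p = 0.382, 0.686 and 0.393), and -0.11, -0.35 and -0.14 without replicate 1. Of the 50-base words of Sult2a2, 62.1% were also found in another gene, most often Sult2a1, so their reads could be split between them. Sult2a4 followed the same pattern at lower counts (181 in replicate 1, 25.9 to 71.7 in control livers), whereas Sult2a3 and Sult2a8 did not, with replicate 1 inside the control range for both.

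**Figure D3:**
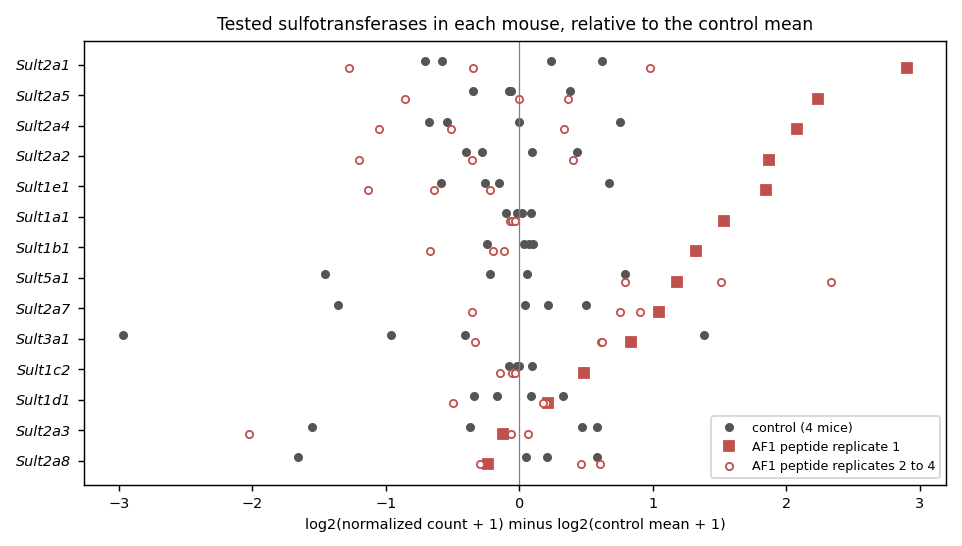
The 14 tested sulfotransferases in each mouse, as log2(normalized count + 1) minus the log2 of the control mean + 1; filled circles are control mice, squares AF1 peptide replicate 1 and open circles AF1 peptide replicates 2 to 4. In the upper rows the square lies far right of the other 7 mice, as for Sult2a1, Sult2a5, Sult2a4, Sult2a2, Sult1e1, Sult1a1 and Sult1b1.

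Sult5a1 was the only enzyme called higher, and here the difference did not rest on AF1 peptide replicate 1. The gene was expressed at a low level, with 13.2, 27.6, 16.2 and 5.02 normalized counts in control livers and 36.4, 82.2, 46.1 and 27.6 in AF1 peptide livers. The lowest AF1 peptide mouse, replicate 4, was level with the highest control mouse, replicate 2, and all other AF1 peptide mice were above every control. The log2 fold change was 1.66 ± 0.48 (limma, unadjusted p = 0.0057, adjusted p = 0.763), or 3.16-fold, and 1.75 ± 0.50 without AF1 peptide replicate 1 (unadjusted p = 0.00473). It kept an unadjusted p under 0.05 in 8 of 8 fits that left out a mouse. With a minimum of 10 in every mouse it was not tested, because control replicate 4 had 5.02.

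Sult3a1, which sulfates amines, had 53.6, 14.8, 9.73 and 1.67 normalized counts in control livers and 36.4, 31.1, 15.7 and 31.2 in AF1 peptide livers, a log2 fold change of 1.18 ± 0.74 (limma, unadjusted p = 0.144). Sult2a7 had 66.7, 24.6, 91.9 and 75.4 against 134, 110, 50.3 and 122 (log2 fold change 0.73 ± 0.42, unadjusted p = 0.109). In both, AF1 peptide mice were on average higher and the groups overlapped. Each was called in 1 of the fits that left out a mouse, Sult3a1 without control replicate 1 and Sult2a7 without AF1 peptide replicate 3. The untested Sult2b1, which sulfates cholesterol, Sult2a6, Sult3a2 and Sult4a1 lay at 0 to 10.8 normalized counts.

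Glutathione transferases made up 89.1% of the summed normalized counts of all 61 enzymes in control livers, against 7.95% for glucuronosyltransferases and 2.99% for sulfotransferases, with no correction for length. Of the 23 tested, 11 were higher and 12 lower in AF1 peptide livers (5 and 18 after rescaling to equal totals). Their median log2 fold change was -0.03, and 0 were called, where 1.79% of all tested genes were called higher and 1.9% lower. With AF1 peptide replicate 1 left out, 9 were higher and 14 lower, with a median of -0.094, and with any 1 mouse left out the median ranged from -0.094 to 0.055. AF1 peptide replicate 1 was the highest of all 8 mice in 7 of them and the lowest in 9, so the class did not move one way in that mouse.

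The mu-class gene Gstm1 had the highest level of all enzymes per kilobase of exon (107880 normalized counts per kilobase), followed by Mgst1 (39969) and the pi-class gene Gstp2 (39132). Gstm1 had 165431, 199779, 186635 and 103445 normalized counts in control livers and 71900, 196001, 132492 and 215573 in AF1 peptide livers. AF1 peptide replicate 1 was the lowest mouse and the other 3 lay within the control range or, for replicate 4, above it. The log2 fold change was -0.17 ± 0.38 (limma, unadjusted p = 0.668), and 0.16 ± 0.28 without replicate 1. Gstm3 was likewise lowest in AF1 peptide replicate 1, with 34121, 53292, 38051 and 19045 normalized counts in control livers and 14293, 30962, 21426 and 44611 in AF1 peptide livers (log2 fold change -0.41 ± 0.38, unadjusted p = 0.299, and -0.13 ± 0.32 without replicate 1, unadjusted p = 0.687). Its values and those of Gstm1 were also low in control replicate 4, so the spread within the control group was wide for both.

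Gstm2 had 14306, 15130, 9947 and 7270 in control livers and 7209, 11266, 8055 and 10236 in AF1 peptide livers (log2 fold change -0.31 ± 0.24, unadjusted p = 0.225), and it was called lower when control replicate 4 was left out. Gstm4 had a log2 fold change of -0.24 ± 0.18 (unadjusted p = 0.21). The pseudogene Gstm2-ps1 was at 260 to 531 normalized counts in control livers and 165 to 431 in AF1 peptide livers, and shares 46.9% of its 50-base words with other genes, mostly Gstm1. Of the 8 tested Gstm genes, 6 were lower in AF1 peptide livers with or without replicate 1, and 7 after rescaling to equal totals. The 6 were not the same genes in both fits. Without replicate 1 the log2 fold change of Gstm1 went from -0.17 to 0.16 and that of Gstm7 from 0.13 to -0.09.

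Mgst1, the membrane-bound transferase of the endoplasmic reticulum and mitochondria, had 104958, 94072, 72534 and 73446 normalized counts in control livers and 74270, 83599, 50654 and 90133 in AF1 peptide livers. The groups overlapped, and the lowest mouse was AF1 peptide replicate 3. The log2 fold change was -0.22 ± 0.24 (limma, unadjusted p = 0.365). Mgst3 had 4636, 4716, 5611 and 4007 in control livers and 2003, 5861, 5145 and 5365 in AF1 peptide livers. Replicate 1 was below every other mouse and the other 3 AF1 peptide mice were in the upper part of the control range or above it, so the log2 fold change went from -0.15 to 0.21 without replicate 1 (unadjusted p = 0.105).

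Pi-class enzymes also act on small electrophiles. Gstp2 had 35798, 50097, 49833 and 35256 normalized counts in control livers and 32393, 44480, 51798 and 48776 in AF1 peptide livers (log2 fold change 0.05 ± 0.20, unadjusted p = 0.804), and 54.3% of its 50-base words were also found in another gene, mostly Gstp1. Gstp3, which shared none, had the smallest p of the class with all mice, with 1537, 1324, 1340 and 1270 in control livers and 912, 1352, 1267 and 1151 in AF1 peptide livers (log2 fold change -0.24 ± 0.13, unadjusted p = 0.0968). Without replicate 1 it was -0.12 ± 0.10 (limma, unadjusted p = 0.257), and Mgst3 then had the smallest p. All 3 Gstp genes were lowest in AF1 peptide replicate 1.

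The alpha-class gene Gsta2 moved the other way in that mouse. It had 4935, 6296, 4709 and 3222 normalized counts in control livers and 12826, 4791, 2551 and 6800 in AF1 peptide livers, so that replicate 1 had 2.68 times the control mean. Its log2 fold change was 0.29 ± 0.41 (limma, unadjusted p = 0.486), and -0.09 ± 0.29 without replicate 1. AF1 peptide replicate 1 was also above every other mouse for Gsta3, Gstt3, Gstm7, the mitochondrial and peroxisomal Gstk1, the dehydroascorbate reductase Gsto1 and Gstz1, which isomerises maleylacetoacetate in tyrosine breakdown. Gstk1 reached 9783 normalized counts in it, against 4420 to 5988 in control livers, and Gstz1 34256, against 21174 to 25642. Gsta1 shares 90.5% of its 50-base words with other genes, mostly Gm3776, and its level is therefore uncertain (log2 fold change -0.05 ± 0.31). Gsta4, which acts on 4-hydroxynonenal from lipid peroxidation, had a log2 fold change of 0.06 ± 0.23.

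The others of the class, Gstm5, Gstm6, Gstp1, Gstt1 and Gstt2, had log2 fold changes between -0.13 (Gstm6) and 0.06 (Gstt2). Gstt1 was lowest in AF1 peptide replicate 1 (8424 normalized counts, against 9917 to 14600 in control livers). Below the filter, Gsto2 was at 0, 0, 1.08 and 1.67 normalized counts in control livers and at 6.53, 3.65, 2.47 and 7.35 in AF1 peptide livers. These groups did not overlap, but the values stand for a few reads per mouse, and the gene was called higher only when no filter was used. Mgst2 was at 4.32 to 15.9 normalized counts.

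**Figure D4:**
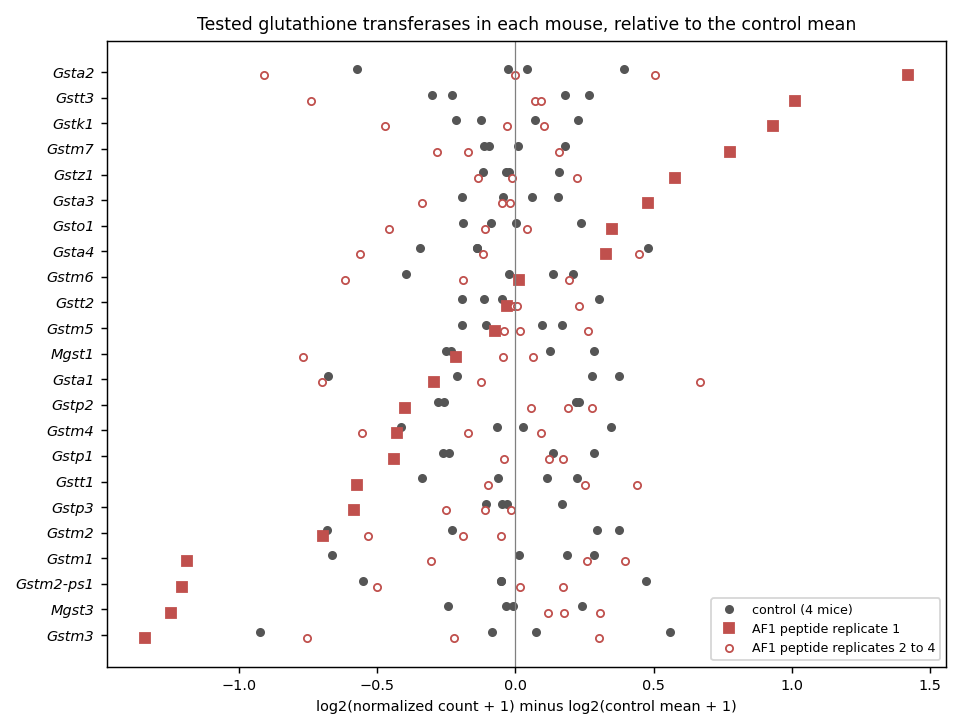
The 23 tested glutathione transferases in each mouse, on the same scale and with the same symbols as the plot of sulfotransferases, ordered by AF1 peptide replicate 1. The square runs from the far right (Gsta2) to the far left (Gstm3), while AF1 peptide replicates 2 to 4 lie among the control mice in most rows.

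Spread between mice differed between the classes. The median coefficient of variation of the tested genes was 17.4% in control and 28.7% in AF1 peptide livers for glucuronosyltransferases, 18.5% and 24.6% for glutathione transferases, and 42.5% and 58.3% for sulfotransferases, against 13.3% and 18.1% over all tested genes. Sulfotransferases thus varied most among the 3 classes also within control mice. Single genes departed from this, such as Sult1a1 and Sult1c2, with 5.21% and 5.12% in control livers. In control livers Sult3a1, Sult5a1 and Sult2a3, at means of 24.3, 31.8 and 32.7, had 116%, 60.2% and 55.7%. More abundant genes were also high, such as Sult2a1 with 44% and Sult1e1 with 41%. The AF1 peptide values include replicate 1. For Sult1a1 they gave 66.7%, while replicates 2 to 4 had 10085 ± 119 (mean ± SD). The parts of few counts and of that mouse in the class medians were not tested.

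Genes that supply, remove or control the conjugates were taken from lists. UDP-glucuronate is made from UDP-glucose, and all 4 listed genes of its supply (Ugp2, Ugdh and the transporters Slc35d1 and Slc35d2) were lower in AF1 peptide livers, with a median log2 fold change of -0.25 (3 of 4 lower without AF1 peptide replicate 1), and 0 had a p under 0.05. Control replicate 2 was the highest of all 8 mice in 3 of the 4, such as Ugp2 with 15132 normalized counts, against 7988 to 11118 in the other control livers. Where 3.03% of all tested genes were lower at p under 0.05, 2 of 8 tested genes of PAPS supply and use were. These were Bpnt1, which removes the phosphoadenosine phosphate left by sulfation and had 470, 484, 328 and 447 normalized counts in control livers and 340, 301, 292 and 369 in AF1 peptide livers, and its Golgi counterpart Bpnt2, with 548, 609, 493 and 532 against 439, 479, 372 and 514. AF1 peptide mice were in the lower part of the range for both, with overlap. The log2 fold changes were -0.40 ± 0.14 (limma, unadjusted p = 0.0196, called lower) and -0.28 ± 0.12 (unadjusted p = 0.0443). Without replicate 1 they were -0.42 and -0.27 (limma, unadjusted p = 0.0174 and 0.0604). Then 1 of the 8 was lower at p under 0.05, where 5.48% of all tested genes were. Papss2, the main liver enzyme that makes PAPS, had a log2 fold change of 0.24 with all mice and 0.01 without replicate 1, in which it had 6322 normalized counts against 3047 to 4175 in control livers.

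Glutathione is made by glutamate-cysteine ligase and glutathione synthetase. Of 10 tested genes of its supply, 1 was lower at p under 0.05, where 3.03% of all tested genes were. This was the ligase's modifier subunit Gclm, with 2797, 3310, 2433 and 2403 normalized counts in control livers and 2213, 2225, 1874 and 2562 in AF1 peptide livers (log2 fold change -0.30 ± 0.13, limma, unadjusted p = 0.0465). AF1 peptide mice were lower on average, and replicate 4 overlapped the controls. When AF1 peptide replicate 1 was left out, the log2 fold change of Gclm was -0.30 (limma, unadjusted p = 0.0512) and 0 of the 10 were lower at p under 0.05, whereas Slc1a5, a glutamine transporter, was called higher (log2 fold change 0.56, unadjusted p = 0.00271). In that fit 4.58% of all tested genes were higher and 5.48% lower at p under 0.05. None of 11 tested genes of conjugate breakdown, 8 of conjugate export or 16 other conjugating enzymes had a p under 0.05, and their median log2 fold changes were 0.04, -0.04 and -0.02. Without AF1 peptide replicate 1 these medians were 0.04, -0.059 and -0.031, and of the 3 lists 1 gene had a p under 0.05, Gusb, the lysosomal β-glucuronidase, which was called lower (log2 fold change -0.47, limma, unadjusted p = 0.0142). Nnmt, a methyltransferase of the last list, was chosen after its values were seen, for its 24679 normalized counts in AF1 peptide replicate 1 against 2010 to 4594 in control livers.

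Among 18 tested regulators of these enzymes, 2 were higher at p under 0.05 and none lower, against 3.16% and 3.03% of all tested genes. Nr1i2 encodes the pregnane X receptor, a sensor of drugs and bile acids, and had 3649, 3200, 4099 and 4176 normalized counts in control livers and 5072, 4606, 4773 and 4270 in AF1 peptide livers. All 4 AF1 peptide mice were above all 4 control mice. Esr1, the gene of estrogen receptor α, had 241, 175, 244 and 226 against 521, 354, 233 and 253, with AF1 peptide replicate 3 inside the control range and the other 3 above it. The log2 fold changes were 0.31 ± 0.11 for Nr1i2 (limma, unadjusted p = 0.018) and 0.55 ± 0.24 for Esr1 (unadjusted p = 0.0404, called higher). Without AF1 peptide replicate 1 they were 0.27 and 0.32 (limma, unadjusted p = 0.0321 and 0.0827). In that fit 2 regulators were higher at p under 0.05, Nr1i2 and the bile acid receptor Nr1h4 (log2 fold change 0.30, limma, unadjusted p = 0.00753), and 1 was lower, the transcription factor Cebpb (-0.28, unadjusted p = 0.0335). Of all tested genes 4.58% were then higher and 5.48% lower at p under 0.05.

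Nr1h3, the liver X receptor α, was also higher with no overlap between the groups. This made 2 of the 18 regulators, where 2.05% of all tested genes were higher with no overlap. Nr1h3 had 2298 to 2474 normalized counts in control livers and 2485 to 3316 in AF1 peptide livers (log2 fold change 0.17 ± 0.11, limma, unadjusted p = 0.141). Without AF1 peptide replicate 1 its log2 fold change was 0.075 (limma, unadjusted p = 0.394). Ahr, Nfe2l2, Nr1i3 and Hnf4a had log2 fold changes from -0.08 to 0.18 and p values over 0.05. Of 14 tested genes that these regulators are known to induce, 3 were higher and 11 lower and none had a p under 0.05. The 3 were Ces2a, Por and Cyp2b10, with log2 fold changes of 0.41, 0.33 and 0.06. When AF1 peptide replicate 1 was left out, 1 of the 14 was higher (Ces2a, 0.19) and 13 lower. In that fit the cytochrome P450 gene Cyp2c55 was called lower (log2 fold change -0.78, limma, unadjusted p = 0.0481), where 3.07% of all tested genes were called lower. The list includes the pregnane X receptor target Cyp3a11, with 32771, 50650, 43233 and 52473 normalized counts in control livers and 44200, 36177, 13600 and 54528 in AF1 peptide livers (log2 fold change -0.42 ± 0.38, unadjusted p = 0.296), in which AF1 peptide replicate 3 was the lowest mouse and the others overlapped the controls.

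**Figure D5:**
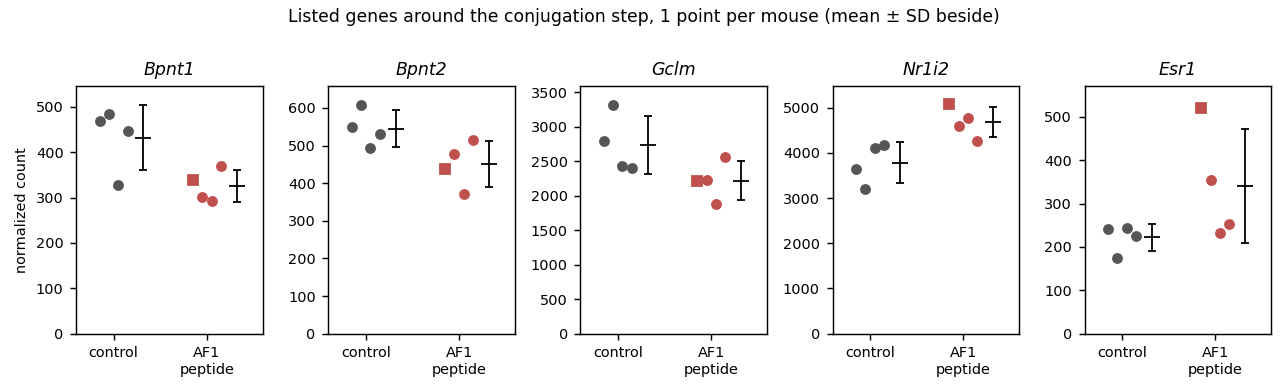
Normalized counts of 5 listed genes around the conjugation step with an unadjusted p under 0.05, 1 point per mouse, with group mean ± SD (n = 4) beside the points; the square is AF1 peptide replicate 1. The groups do not overlap for Nr1i2 and overlap for Bpnt1, Bpnt2, Gclm and Esr1.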

How the data were processed

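Liver RNA of 4 control and 4 AF1 peptide-treated db/db mice was sequenced from stranded mRNA libraries. The authors used Trim Galore 0.6.7 for trimming, HISAT2 2.2.1 for alignment, SAMtools 1.17 for sorting and GenomicAlignments (given as version 11.34.1) for counts per gene. The build in the submitters' processing notes is mm39. The annotation, the use of strand, the handling of reads that match several genes and the normalization tool are not given in the sources used here. The deposited signal is a normalized count per gene and mouse, with no pooling of mice. Multiplied by the library's size factor, which was the median-of-ratios factor, 100% of 172256 values came out as whole reads within 0.1 read, so the reads were recovered. Depth was 23031880 to 45117528 reads per mouse, and at a mean of 10 normalized counts the counting error is large beside that of the abundant enzymes.

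Each mouse's group and number came from its label. log2(normalized count + 1) was tested two-sided with limma 3.58.1 in R 4.3.3 (moderated variances with an intensity trend) over 15989 genes with a mean of at least 10, with no covariate, and p values were adjusted by the Benjamini-Hochberg method over all of them. limma was tested on simulated data. Mice with the same number deviated from their group means with correlations of -0.064 to 0.235 (mean 0.103, against -0.034 for other pairs). No label says that the numbers pair mice, so they were not taken as pairs. The alternatives tried were edgeR 4.0.16 and DESeq2 1.42.0 on recovered reads, a replicate block, limma with no trend or with no moderation, TMM and equal-total rescaling, pseudocounts of 0.5 and 5, the table without a filter or with at least 10 in all mice, p alone with no fold threshold, and each mouse left out.

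Members and lists were chosen with earlier results of these data known. In each class, enzymes were named with full values if their p was under 0.05, if they had 1 of the 3 smallest p values, 1 of the 3 highest mean counts, 1 of the 2 largest fold changes at a mean of at least 50 or groups that do not overlap at that mean, or if their fold change moved most when 1 mouse was left out. Listed genes were named at p under 0.05, and Slc1a5, Gusb, Nr1h4, Cebpb and Cyp2c55, which reached it without AF1 peptide replicate 1, were added after their values were seen. A few listed genes and a motif are not reported here, and list counts leave these genes out. Other enzymes are given so that each is accounted for. The other listed genes with values (Papss2, Nnmt, Nr1h3, Cyp3a11, Ces2a, Cyp2b10, Cux2, Cth, Cbs and Por) were chosen after their values were seen. Promoters are those of RefSeq (GRCm38.p6), matched by symbol for 52 of the 61 enzymes, and levels per kilobase and shared 50-base words use the exons and transcripts of GENCODE M21.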

Additional observations from a re-analysis of the deposited data

Results flagged for a closer look

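In 6 of 104 groups of 4 mice (52 enzymes, 2 treatments), 1 mouse lay so far from the others that its gap to the nearest mouse, as a share of the group's whole range, exceeded Dixon's 95% critical value. If the groups were independent, chance alone would give about 5.2 such groups. They are not independent, since all genes share the same mice and some share reads, so no conclusion is drawn from the number. All 6 were in AF1 peptide livers. The shares were 0.979 for Sult1a1, 0.879 for Mgst3 and 0.859 for Ugt1a5, where AF1 peptide replicate 1 was the mouse apart, highest for Sult1a1 and lowest for the other two. They were 0.944 for Sult1d1 and 0.911 for Sult2a3, lowest in replicate 3, and 0.863 for Gstt2, highest in replicate 2.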

How the results depend on the processing

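The same 5 enzymes were called with pseudocounts of 0.5 and 5, TMM rescaling, equal totals, edgeR, DESeq2 and the replicate block. In the replicate block 4 glucuronosyltransferases were called lower and 1 sulfotransferase higher, the same as without it. Over all genes the block called 341 higher and 392 lower, against 286 and 304 without it. No label says whether the numbers pair mice, so pairing is unknown. With each gene's own variance 2 glucuronosyltransferases were called lower, and without the trend 3 were. With a minimum of 10 in every mouse 0 sulfotransferases were called higher, since Sult5a1 was then not tested, and with no filter 1 glutathione transferase was called higher (Gsto2). With 1 mouse left out in turn, 3 to 4 glucuronosyltransferases were called lower, 1 to 2 sulfotransferases higher and 0 to 1 glutathione transferases lower. Ugt1a1 was not called without control replicate 2 or 4 or AF1 peptide replicate 2, 3 or 4.

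Some uncalled fold changes changed sign, and the cause was not tested. With equal totals, which moved the median of all genes from -0.01 to -0.10, the log2 fold change was -0.039 for Gstp2, -0.046 for Sult1e1 and -0.076 for Ugt2b5. For Ugt2b36 it was 0.0033 in edgeR and 0.0065 in DESeq2. With 1 mouse left out it ranged from -0.094 to 0.68 for Gsta2, -0.37 to 0.16 for Gstm1, -0.034 to 0.20 for Gstp2, -0.051 to 0.48 for Sult1a1, -0.58 to 0.41 for Sult1e1, -0.11 to 1.28 for Sult2a1, -0.35 to 0.68 for Sult2a2, -0.069 to 0.12 for Ugt2b36 and -0.090 to 0.16 for Ugt2b5. Over all genes, 286 were called higher and 304 lower, against 122 and 602 with equal totals (16.9% of calls higher in place of 48.5%), 435 and 459 with no filter, 214 and 197 with own variance, 198 and 173 without control replicate 2, and 457 and 491 without AF1 peptide replicate 1.

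No enzyme passed an adjusted p of 0.05 in limma under any of these settings. With 4 mice per group, and 1 library that stood apart, the spread between mice limits what can be called. Labels name biological replicates and do not say whether mice shared cages or litters. Enzymes with few counts (Sult5a1, Sult3a1, Sult2a3) carry more counting error, and how reads shared by near copies among the Ugt1a, Sult2a, Gsta and Gstp genes were counted is not given in the sources used here.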

Other observations

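Several listed genes outside the 61 enzymes also had their highest value in AF1 peptide replicate 1. Cux2, a transcription factor of liver that is higher in females, had 4101 normalized counts in it, against 158 to 501 in control livers and 117 to 812 in the other AF1 peptide livers. Cth and Cbs, which make cysteine for glutathione from homocysteine, had 14656 and 14593, against 1911 to 3640 and 5391 to 7247 in control livers. Por, the electron donor of cytochromes P450, had 24662, against 8616 to 10755. These genes were chosen after their values were seen, and none had an unadjusted p under 0.05 between the groups.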
